A study of Homo sapiens with 6 samples.

Results

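The 9 genes described here are the receptor chains, receptor kinases and ligand subunits through which cytokines of the IL-12 family signal, namely IL12RB1, IL12RB2, IL23R, IL27RA, IL6ST, TYK2, JAK2, IL12A and IL23A. They were taken by symbol from the 36601 genes of the count table. RNA was sequenced from NK92 (NK-92 in the labels), a line derived from a human NK cell lymphoma that needs IL-2 to grow. Cells stably carried a control shRNA (shCtrl, 3 libraries) or an shRNA against the lncRNA miR155HG (shmiR155HG, 3 libraries). Before all 6 libraries were made, cells had received IL-12 at 10 ng/mL together with 1000 U/mL of IL-2 over 12 h, so the data hold no culture without IL-12 and do not show how the cytokines themselves changed these genes. Whether the 3 libraries of a group were separate cultures or transductions is not given, and p-values then measure only the spread between these libraries.

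IL-12 binds a receptor made of IL12RB1, which carries the kinase TYK2, and IL12RB2, which carries JAK2. The kinases phosphorylate STAT4, and in NK cells this pathway is best known for inducing IFN-γ. IL-23 uses IL12RB1 with IL23R in place of IL12RB2, whereas IL-27 uses IL27RA with IL6ST (gp130), the chain that is shared by the IL-6 family. IL12A and IL23A encode the subunits that pair with IL12B to form IL-12 and IL-23.

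IL12RB2 and TYK2 were called lower in shmiR155HG cells at an adjusted p under 0.05, and no member was called higher. The share of all genes tested was 8.02% called lower and 7.26% called higher. The mRNA of IL12RB2 stood at 76.3% of its shCtrl level and that of TYK2 at 90.4%, although TYK2 did not pass when any 1 of 4 libraries was left out. IL12RB1 was lower and IL27RA higher in every shmiR155HG library than in every shCtrl library, but neither passed an adjusted p of 0.05. Of all genes tested, 15.6% were separated in this way with shmiR155HG lower and 15.2% with shmiR155HG higher. IL6ST, JAK2, IL12A and IL23A overlapped between the groups, and IL23R is listed at 0 in all 6 libraries.

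The total count was 33454786 to 39157264 per library. A filter of over 1 CPM in at least 2 libraries was passed by 12263 genes, including 8 of the 9 members. CPM is the count relative to the total of its library, unscaled for this filter and scaled elsewhere. MIR155HG, the targeted gene, had 62 to 73 counts in shCtrl libraries and 10 to 28 in shmiR155HG libraries (log2 fold change −1.78, SE 0.43, adjusted p = 0.00450 by edgeR's quasi-likelihood test, here the QL test). Of 12 NK cell markers 11 were tested, and their summed level was 2669 to 2715 CPM in shCtrl and 2726 to 2807 CPM in shmiR155HG libraries. EOMES, TBX21 and KLRC1 were higher and NCR3 and PRF1 lower, although KLRC1 lost its call without shCtrl replicate 3 (log2 fold change 0.12), shmiR155HG replicate 2 (0.17) or shmiR155HG replicate 3 (0.15). Of 7 T cell markers 2 were tested (CD3E and TRAC) and neither passed, with sums of 398 to 409 and 400 to 417 CPM, and CD8B was at 0. Of 4 B cell markers the only one tested, PAX5, was higher (log2 fold change 0.49), with sums of 229 to 265 and 341 to 344 CPM, while MS4A1 had at most 5 counts. Of 5 myeloid and dendritic cell markers 2 were tested and ITGAX was lower (−0.38), with sums of 128 to 143 and 102 to 108 CPM, and FCER1A was at 0. Replication-dependent histone genes, taken by symbol, make mRNAs that mostly lack a poly(A) tail. Their sum was 80.2 to 86.2 CPM in shCtrl and 142.8 to 159.1 CPM in shmiR155HG libraries. By edgeR's QL test, 14 of 26 tested histone genes were higher and none lower. The same test called 7.26% of all genes higher and 8.02% lower. Several of the histone genes called higher were under 1 CPM in each shCtrl library and passed the filter only through shmiR155HG libraries. For those the filter itself favored a rise, so the count of 14 is no evidence of a direction. Some histone genes also had nearly the same counts in each library and are not separate signals. Whether the histone mRNAs counted here had a tail was not tested. What part these markers and histone mRNAs had in the changes of the receptor genes was not tested.

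miR155HG is the host transcript of miR-155, and a match to the seed of a miRNA in a 3′UTR is the usual mark of a possible target. For this reason the mature miR-155-5p is shown with its seed (bases 2 to 8) in capitals, followed by the 3 matches found among the members, with the 7 bases complementary to the seed (AGCATTA) in capitals. The miRNA is from RefSeq (GRCh38.p14, chromosome 21, plus strand, 25573983 to 25574006). The 3′UTR stretches were read from hg38 with the canonical transcripts of GENCODE 44 and are written 5′ to 3′ on the strand of the gene, at chr9:5127350-5127374 (plus strand) for JAK2, chr5:55936914-55936938 (minus strand) for IL6ST and chr1:67259502-67259526 (plus strand) for IL23R.
hsa-miR-155-5p: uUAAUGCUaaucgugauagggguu
JAK2: tcgctggccAGCATTAtaagcaggt
IL6ST: tgactgactAGCATTAggtatgttt
IL23R: cacaaaaacAGCATTAtgtggacgc
The match began at base 568 of the 3157 bases of the JAK2 3′UTR, at base 4153 of 5987 in IL6ST and at base 383 of 851 in IL23R. None of them is followed by an A. No such letters were in the 3′UTRs of IL12RB1, IL12RB2, IL27RA, TYK2, IL12A or IL23A, of which that of IL12RB2 was the longest at 2635 bases. Among the tested genes with an annotated 3′UTR, 1278 of 10763 (11.9%) held the site, as did 948 of the 3789 (25.0%) whose 3′UTR had 2000 bases or more. JAK2 and IL6ST passed the test in neither direction. What part miR-155 had in the value of any member was not tested. A match is a description of the sequence and not a measured binding site, and miR-155 itself was not measured.

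IL12RB2 (ENSG00000081985) encodes the signaling chain that makes the receptor specific for IL-12. In hg38 it spans 67307364 to 67398724 of chromosome 1 (plus strand), and its canonical transcript has 17 exons and 5443 nt. In replicates 1, 2 and 3 it had 3672, 3370 and 3953 counts with shCtrl, against 2830, 2924 and 2316 counts with shmiR155HG. Normalized levels were 94.4, 92.4 and 101 CPM in shCtrl libraries, against 73.7, 76.8 and 69.3 CPM in shmiR155HG libraries. None of the shmiR155HG libraries reached the lowest shCtrl library, with a gap wider than the range within either group. The mean fell from 96.1 ± 4.75 CPM with shCtrl to 73.3 ± 3.81 CPM with shmiR155HG (SD, n = 3 each). On the log2 scale this was a change of −0.39 (SE 0.058, 95% interval −0.51 to −0.27, adjusted p = 1.8e-05 by edgeR's QL test). The call held in each of 16 alternative settings, with values from −0.43 to −0.35. In bulk samples such as these, fewer cells of a type and less RNA per cell cannot be told apart.

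**Figure D1:**
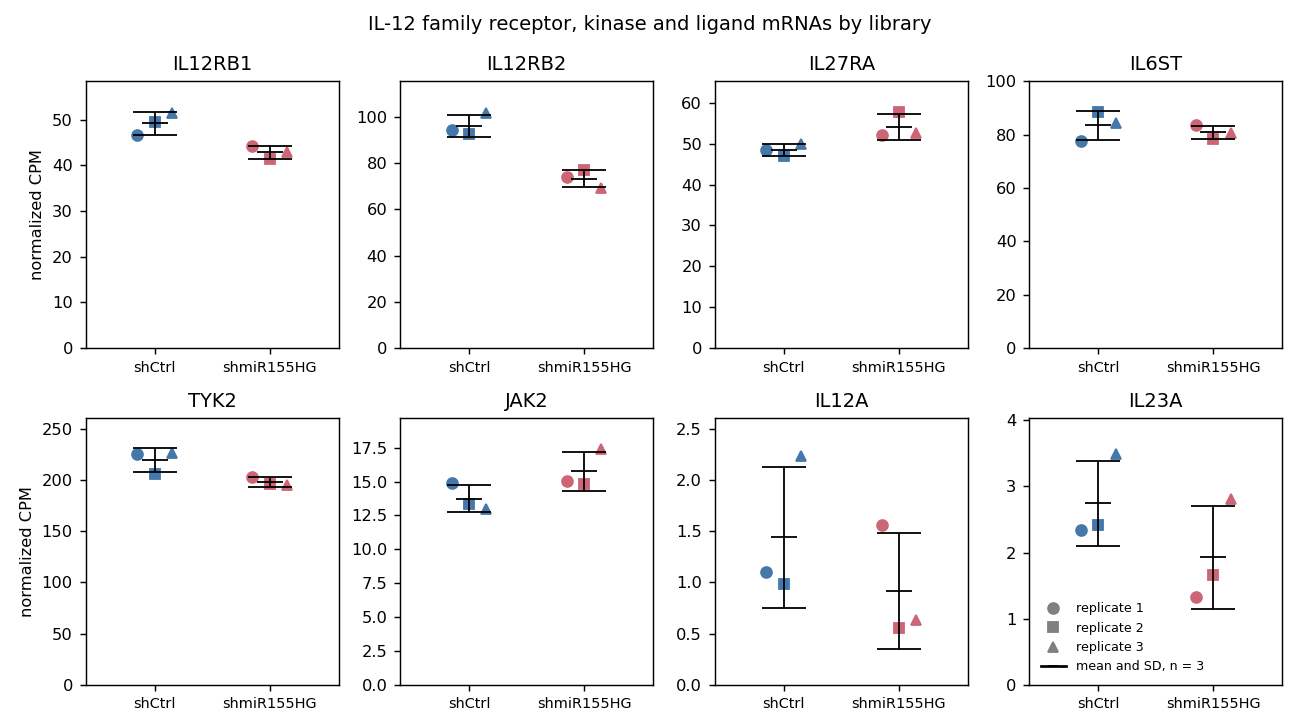
Normalized CPM (vertical axes from 0, a scale for each gene) of the 8 members with counts in the 3 shCtrl (blue) and 3 shmiR155HG (red) libraries, with circles, squares and triangles for replicates 1, 2 and 3 and bars for the mean and SD (n = 3). The IL12RB2 points of shmiR155HG lie at 69.3 to 76.8 CPM, all below the lowest shCtrl point at 92.4 CPM, while those of IL6ST, JAK2, IL12A and IL23A overlap between the groups.

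IL12RB1 (ENSG00000096996), the chain shared by the IL-12 and IL-23 receptors, lies on the minus strand of chromosome 19 from 18058995 to 18098944 and has 17 exons and 2713 nt in its canonical transcript. The shCtrl libraries had 1812, 1802 and 2008 counts and the shmiR155HG libraries had 1699, 1576 and 1435, which corresponded to 46.6, 49.4 and 51.5 CPM and to 44.3, 41.4 and 42.9 CPM. Every shmiR155HG library was lower than every shCtrl library, by at least the step from 46.6 to 44.3 CPM. Mean levels were 49.2 ± 2.48 CPM (SD, n = 3) and 42.9 ± 1.44 CPM (SD, n = 3). The log2 fold change was −0.20 (SE 0.069, 95% interval −0.34 to −0.056), with an unadjusted p of 0.00802 and an adjusted p of 0.0519 by edgeR's QL test. This gene therefore lay just outside the threshold, and it passed with correction for GC content (−0.29, adjusted p = 0.00445), in DESeq2 (adjusted p = 0.0438) and in the exact test of edgeR (adjusted p = 0.0429). MAST3 overlaps IL12RB1 on the opposite strand without sharing exon bases and had 1018 to 1278 counts.

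IL23R (ENSG00000162594), which replaces IL12RB2 in the IL-23 receptor, lies 47384 bp from IL12RB2 on the same strand of chromosome 1, from 67138907 to 67259979. It was listed at 0 in all 6 libraries. If 1 count is 1 read, which is not known here, a count of 0 allows up to 3 counts in a library. This limit is 0.0770 to 0.0897 CPM, for counting error only. Per kilobase of transcript, IL12RB1 was at least 504-fold and IL12RB2 at least 405-fold above that limit in every library. Genes that many cells use, such as IFNGR2 and SOCS6, were also listed at 0 in all libraries, and whether a 0 in this table means no mRNA or no assigned reads was not tested.

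IL27RA (ENSG00000104998), the specific chain of the IL-27 receptor, lies on the plus strand of chromosome 19 from 14031762 to 14053218, with 14 exons and 2950 nt. In replicates 1, 2 and 3 it had 1889, 1713 and 1945 counts with shCtrl, and 2002, 2200 and 1757 with shmiR155HG. After scaling, the levels were 48.6, 47.0 and 49.9 CPM against 52.2, 57.8 and 52.5 CPM. Each shmiR155HG library was above each shCtrl library, with replicate 2 the highest. Means were 48.5 ± 1.48 CPM (SD, n = 3) and 54.2 ± 3.15 CPM (SD, n = 3), and the log2 fold change of 0.16 (SE 0.067, 95% interval 0.022 to 0.30) had an adjusted p of 0.114 by edgeR's QL test. Correction for GC content moved this value to 0.082.

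IL6ST (ENSG00000134352) encodes gp130, the signaling chain used by IL-27 and by the IL-6 family. It lies on the minus strand of chromosome 5 from 55935095 to 55995022, with 17 exons and 9027 nt. Levels were 77.8, 88.4 and 84.3 CPM in shCtrl libraries and 83.5, 78.3 and 80.7 CPM in shmiR155HG libraries. The 3 shmiR155HG values lay within the range of the shCtrl values. The log2 fold change was −0.046 (SE 0.059), with a 95% interval of −0.17 to 0.074 and an adjusted p of 0.673 by edgeR's QL test, and its sign turned to 0.012 with correction for GC content. This value near 0 ranged from −0.093 without shCtrl replicate 1 to −0.0027 without shCtrl replicate 2, and was −0.070 without shmiR155HG replicate 1 and −0.023 without shmiR155HG replicate 2. Of the 5 chains that partner gp130 for other cytokines, IL11RA was the only one tested (log2 fold change 0.056, adjusted p = 0.901 from the same test in edgeR), IL6R was listed at 0, and LIFR, OSMR and CNTFR had at most 6, 13 and 2 counts in a library.

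TYK2 (ENSG00000105397), the kinase bound to IL12RB1 and to several other cytokine receptors, lies on the minus strand of chromosome 19 from 10350533 to 10380608 and has 25 exons and 4243 nt. The counts were 8767, 7492 and 8821 in shCtrl libraries and 7797, 7472 and 6506 in shmiR155HG libraries, or 225, 205 and 226 CPM and 203, 196 and 195 CPM. The shmiR155HG libraries were all lower, but shCtrl replicate 2 at 205 CPM was close to shmiR155HG replicate 1 at 203 CPM. The means were 219.0 ± 11.8 CPM with shCtrl and 198.0 ± 4.57 CPM with shmiR155HG (SD, n = 3 each), a change of −0.15 on the log2 scale (SE 0.042, 95% interval −0.23 to −0.060, adjusted p = 0.0163 by edgeR's QL test). The call was lost without shCtrl replicate 1 (−0.12, adjusted p = 0.0853), shCtrl replicate 3 (−0.12, 0.0620), shmiR155HG replicate 2 (−0.14, 0.0849) or shmiR155HG replicate 3 (−0.13, 0.0927), and correction for GC content moved the value to −0.24.

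JAK2 (ENSG00000096968), the kinase bound to IL12RB2, lies on the plus strand of chromosome 9 from 4984390 to 5129948, with 25 exons and 7023 nt. It had 580, 486 and 507 counts in shCtrl libraries and 578, 564 and 581 in shmiR155HG libraries. In CPM these were 14.9, 13.3 and 13.0 against 15.1, 14.8 and 17.4, so that shCtrl replicate 1 lay within the shmiR155HG range. The log2 fold change of 0.20 (SE 0.12) did not pass (adjusted p = 0.324 by edgeR's QL test), and its 95% interval was −0.056 to 0.45, which holds both no difference and a rise as large on the log2 scale as the fall of IL12RB2. Without shmiR155HG replicate 3 the value was 0.12.

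The ligand subunits were near the lower limit of the data. IL12A (ENSG00000168811; chromosome 3, plus strand, 159988835 to 159996019), the subunit that makes IL-12 with IL12B, had 43, 36 and 87 counts in shCtrl and 60, 21 and 21 in shmiR155HG libraries. IL23A (ENSG00000110944; chromosome 12, plus strand, 56334174 to 56340410), the subunit specific to IL-23, had 91, 88 and 136 counts in shCtrl and 51, 63 and 94 in shmiR155HG libraries. Both genes overlapped between the groups, IL12A through the high shmiR155HG replicate 1 and IL23A through the high shmiR155HG replicate 3. The log2 fold change of IL12A was −0.65 (SE 0.45, 95% interval −1.58 to 0.28) and that of IL23A was −0.51 (SE 0.33, 95% interval −1.19 to 0.16). Neither difference was detectable at this depth (adjusted p = 0.384 and 0.338 by edgeR's QL test). Single libraries moved both values, that of IL12A to −0.19 without shCtrl replicate 3, −1.29 without shmiR155HG replicate 1 and −0.39 without shmiR155HG replicate 2. For IL23A it was −0.30 without shCtrl replicate 3 or shmiR155HG replicate 1 and −0.88 without shmiR155HG replicate 3, and neither gene passed in any of these fits. Among the other subunits of the family, IL12B was listed at 0, IL27 had 1 count in 1 library, and EBI3 had 15 counts in shCtrl replicate 1 and 3 in shmiR155HG replicate 1 and none in the other libraries. For IL-12 and IL-23 there were thus counts for IL12A and IL23A but none for the chain they share.

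Over the 8 members tested, edgeR's QL test called 2 lower and 0 higher (adjusted p under 0.05), where 8.02% of all genes tested were called lower and 7.26% higher. The rule of the study uses an exact test with P under 0.01 and a fold change over 1.2. As applied here, it called IL12RB2 alone, against 3.8% of all genes called lower and 4.49% called higher. The study itself reported more genes in each direction. In 3 members (IL12RB1, IL12RB2 and TYK2) the groups did not overlap and shmiR155HG was lower, where 15.6% of all genes did so, and in 1 member (IL27RA) shmiR155HG was higher without overlap, where 15.2% did so. Together these were 4 of 8 members, against 30.8% of all genes. For each of these 4 members the exact permutation test gave p = 0.1, two-sided, which is the smallest p that 3 libraries against 3 allow. Of the 8 values 6 were negative and the median log2 fold change was −0.17, beside 0.00097 over all genes tested. With 8 genes, these counts describe the members and do not set them apart from other genes. IL12RB2 is also a gene that the study followed and reported as lower by RT-qPCR in shmiR155HG NK92 cells, at a later time than the 12 h of these libraries. The counts are therefore no independent evidence of a direction.

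**Figure D2:**
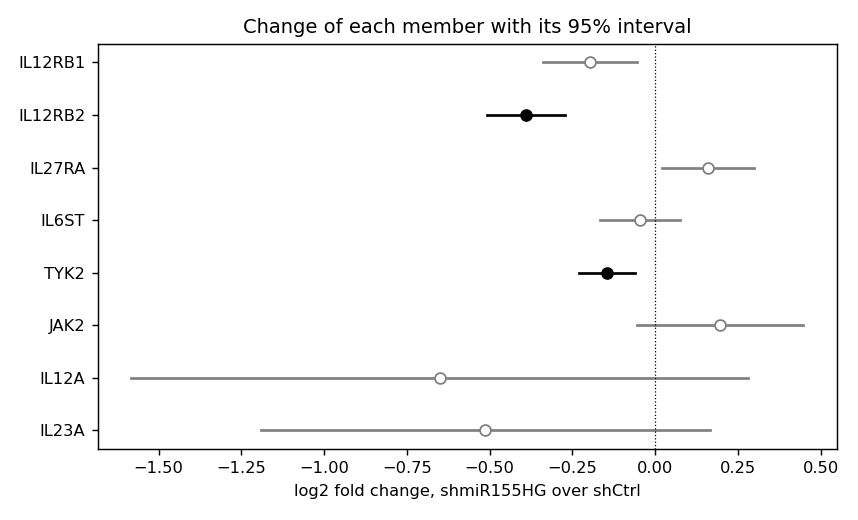
Log2 fold change of shmiR155HG over shCtrl (horizontal axis) for the 8 members tested, with lines for the 95% interval and filled points for an adjusted p under 0.05 in edgeR's QL test. IL12RB2 (−0.39) and TYK2 (−0.15) are filled, and the widest intervals are those of IL12A and IL23A.

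Levels of different genes were compared per kilobase of the canonical transcript. TYK2 was the most abundant member in each library, with 51.6 ± 2.79 CPM per kilobase (SD, n = 3) in shCtrl and 46.7 ± 1.08 CPM per kilobase (SD, n = 3) in shmiR155HG cells. IL12RB1 (18.1 ± 0.915 and 15.8 ± 0.529) and IL12RB2 (17.7 ± 0.873 and 13.5 ± 0.700), both in CPM per kilobase (SD, n = 3), were close to IL27RA, which had 16.5, 15.9 and 16.9 in shCtrl and 17.7, 19.6 and 17.8 CPM per kilobase in shmiR155HG libraries. In shCtrl cells the ranges of IL12RB1 and IL12RB2 overlapped, whereas in shmiR155HG cells they did not, and IL27RA stood above IL12RB2 in 3 of 6 libraries. IL6ST was next (9.25 ± 0.591 and 8.96 ± 0.286), and JAK2 (1.96 ± 0.145 and 2.24 ± 0.201 CPM per kilobase, SD, n = 3) was far below TYK2. IL23A exceeded JAK2 in 4 of 6 libraries, IL12A was lowest of the members with counts (0.998 ± 0.476 and 0.633 ± 0.390 CPM per kilobase, SD, n = 3), and IL23R was at 0. The order of IL12RB1, IL12RB2 and IL27RA depends on the length used. With the union of all annotated exons, IL12RB1 stood at 11.5, IL12RB2 at 12.8 and IL27RA at 16.4 CPM per kilobase in shCtrl cells. In shmiR155HG cells they stood at 9.99, 9.78 and 18.4, so IL27RA was close to the other 2 only with canonical lengths.

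**Figure D3:**
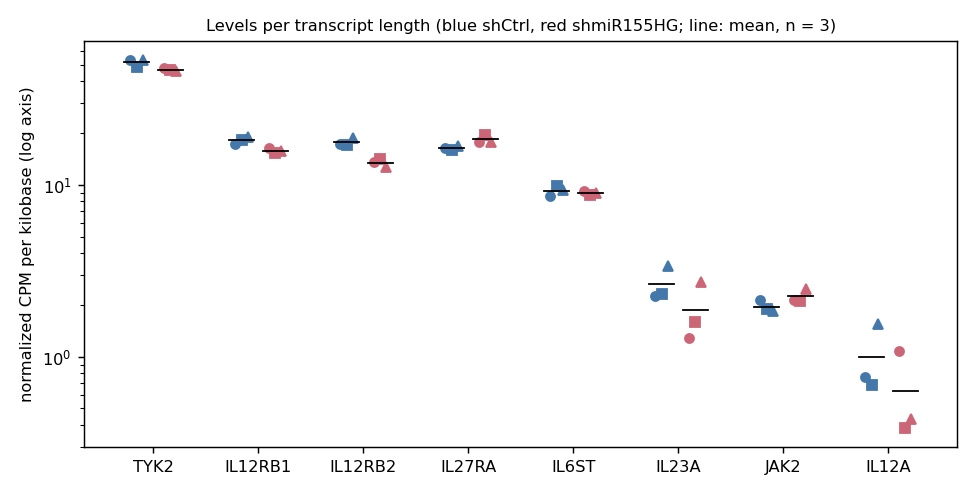
Normalized CPM per kilobase of the canonical transcript (log axis) for the 8 members with counts, with a point for each library (blue shCtrl, red shmiR155HG, circle, square and triangle for replicates 1, 2 and 3) and a line for the group mean (n = 3). TYK2 lies highest at means of 51.6 and 46.7, and JAK2, its partner in the IL-12 receptor, at 1.96 and 2.24.

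Because a receptor needs both of its chains, the ratio of partner mRNAs was taken within each library, where scaling between libraries cancels. These are ratios of CPM without correction for transcript length, so only their difference between the groups can be read. IL12RB2 to IL12RB1 was 2.03, 1.87 and 1.97 in shCtrl and 1.67, 1.86 and 1.61 in shmiR155HG libraries, a log2 difference of −0.19 (SE 0.070). shCtrl replicate 2 and shmiR155HG replicate 2 (1.87 and 1.86) nearly met. JAK2 to TYK2 was 0.0662, 0.0649 and 0.0575 in shCtrl and 0.0741, 0.0755 and 0.0893 in shmiR155HG libraries, a log2 difference of 0.34 (SE 0.11), with every shmiR155HG library above every shCtrl library. IL27RA to IL6ST was 0.624, 0.531 and 0.592 against 0.625, 0.738 and 0.651, a log2 difference of 0.20 (SE 0.099). The groups were separated there only by the step from 0.624 to 0.625. For each of the 3 ratios the two-sided exact permutation test gave p = 0.1, also 0.1 when adjusted over the 3 pairs, so that no ratio could pass a threshold of 0.05 in this design. The pairs with IL23R had too few counts for a ratio.

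**Figure D4:**
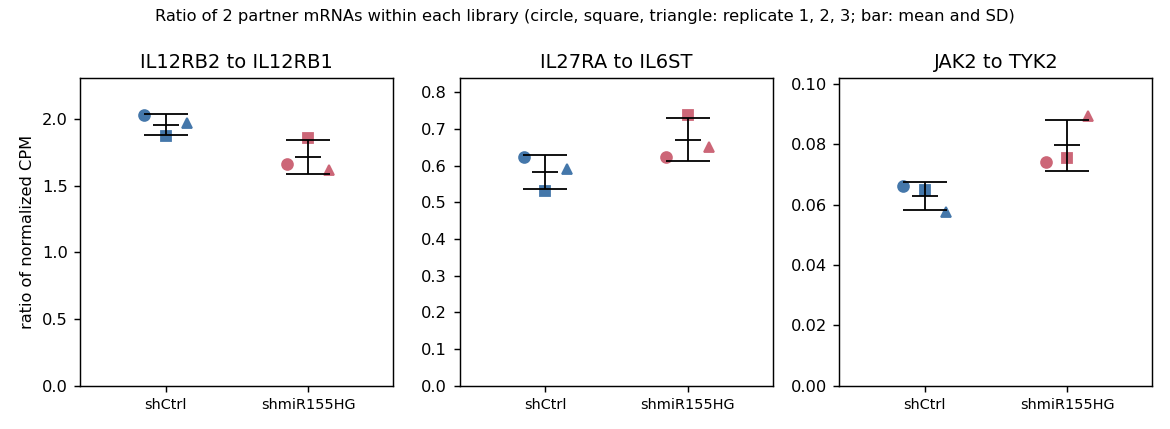
Ratio of normalized CPM of partner mRNAs within each library (vertical axes from 0), with circles, squares and triangles for replicates 1, 2 and 3 and bars for the mean and SD (n = 3). IL12RB2 to IL12RB1 is lower in shmiR155HG libraries (1.61 to 1.86 against 1.87 to 2.03) and JAK2 to TYK2 is higher (0.0741 to 0.0893 against 0.0575 to 0.0662).

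TYK2 and JAK2 also serve other cytokine receptors, of which 22 chains were listed. Of these 10 were tested, 2 were lower and 0 were higher, where 8.02% of all genes tested were called lower and 7.26% higher. The median log2 fold change of these chains was −0.077. The lower chains were CSF2RB, the common β chain of the GM-CSF, IL-3 and IL-5 receptors (39.4 ± 1.68 to 30.9 ± 0.396 CPM, SD, n = 3), and IFNGR1, the ligand-binding chain of the IFN-γ receptor (42.6 ± 3.27 to 33.6 ± 2.35 CPM, SD, n = 3). In both the groups did not overlap, which with shmiR155HG lower held for 15.6% of all genes tested. The log2 fold changes were −0.35 (SE 0.077, adjusted p = 0.0019) for CSF2RB and −0.35 (SE 0.080, adjusted p = 0.0031) for IFNGR1 by edgeR's QL test. Among the other JAKs and the STATs, JAK3 (−0.39) and STAT2 (−0.37) were lower and STAT5A was higher (0.26, whose reads could be shared with its paralog STAT5B). STAT2, a mediator of type I interferon signaling, lost its call without shmiR155HG replicate 2 (−0.33). STAT4, the factor that IL-12 activates, had levels of 34.4, 36.8 and 32.1 CPM in shCtrl and 34.6, 35.0 and 31.6 CPM in shmiR155HG libraries, which overlapped. JAK1 (0.082), STAT3 (0.023), STAT5B (0.0076) and STAT6 (−0.0065) did not pass either.

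Of 19 negative regulators of JAK–STAT signaling, 16 were tested, of which 3 were higher and 3 lower, with a median log2 fold change of 0.0090. Among all genes tested, 7.26% were called higher and 8.02% lower. Higher were SOCS7 (0.25), SOCS4 (0.14) and CISH (0.11), which belong to the SOCS family of receptor and kinase inhibitors. The call of SOCS4 was lost in 8 and that of CISH in 9 of 16 settings, and the value of CISH was 0.032 with correction for GC content. Lower were USP18, an inhibitor of type I interferon signaling (−0.42), and the phosphatases PTPRC (CD45, −0.25) and PTPN1 (−0.21). USP18 lost its call without shCtrl replicate 1 (−0.29) or any 1 of the shmiR155HG libraries (−0.37 to −0.45).

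Genes known to respond to IL-12 or STAT4 moved in both directions. Of 19 listed, 17 were tested, 8 were lower and 6 higher, where 8.02% of all genes tested were called lower and 7.26% higher. The median log2 fold change of the list was −0.20. The list holds genes that the study followed, such as IFNG and GZMB, and is no independent evidence of a direction. The largest falls were those of both chains of the IL-18 receptor, whose expression IL-12 is known to raise, and of the granule protease GZMB (−1.14). IL18RAP had 575, 565 and 546 counts in shCtrl and 168, 218 and 193 counts in shmiR155HG libraries (log2 fold change −1.48, SE 0.15). IL18R1 stood at 67.1, 59.7 and 64.6 CPM in shCtrl and 37.6, 39.5 and 36.5 CPM in shmiR155HG libraries (−0.75, SE 0.069). For these chains of the IL-18 receptor the groups were far apart, and the differences were larger than that of either IL-12 receptor chain. The largest rises were those of MAP3K8, a kinase of the MAPK pathway (0.45, lost without shCtrl replicate 2, 0.38), GADD45B, a stress-response gene (0.27), and TBX21, the transcription factor T-bet (0.27).

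**Figure D5:**
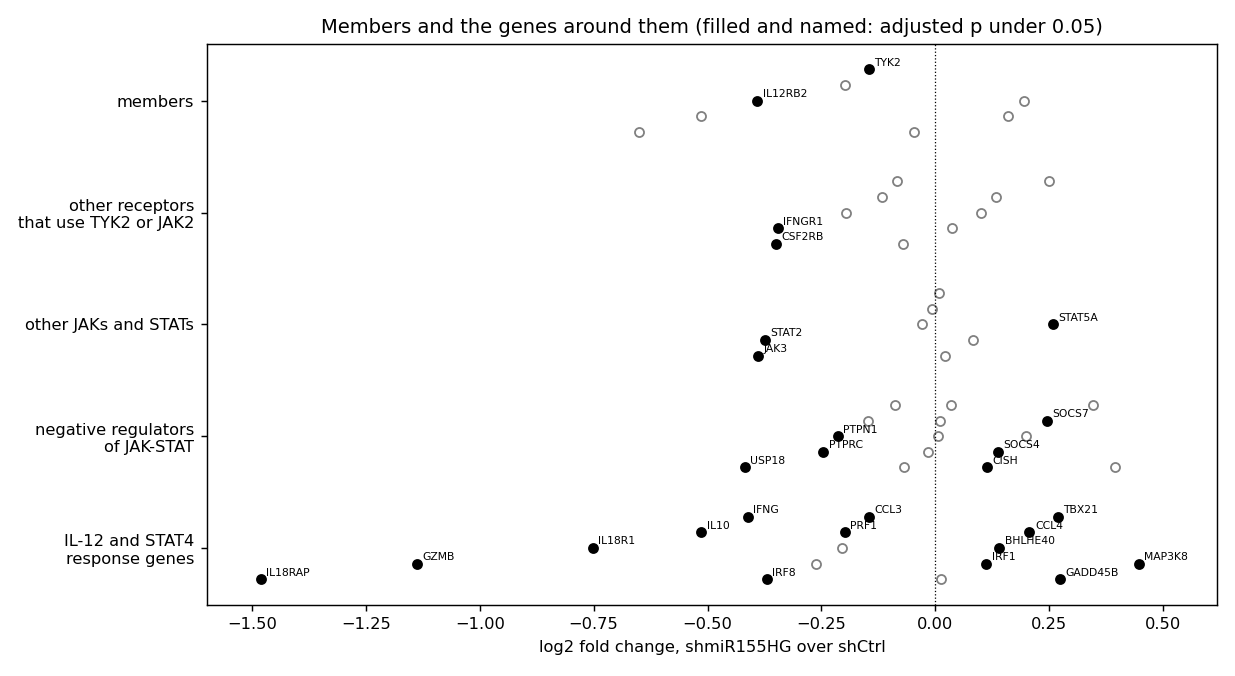
Log2 fold change of shmiR155HG over shCtrl (horizontal axis) for the members tested and for 4 groups of genes around them, with a point for each gene reported here and vertical offsets only to part the points. Filled and named points passed an adjusted p of 0.05 in edgeR's QL test, among them 2 members, IL12RB2 and TYK2, and the largest fall is that of IL18RAP at −1.48.

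The genes next to the members that fell were looked at for a shared change. Beside IL12RB2, the nearest tested genes were SERBP1 (9086 bp away, log2 fold change −0.033) and SLC35D1 (253216 bp away, −0.073), and neither passed (adjusted p = 0.517 and 0.548 by edgeR's QL test). Beside TYK2, they were CDC37 (10525 bp away, −0.078, adjusted p = 0.180 in edgeR) and ICAM3 (10872 bp away, −0.41 with an SE of 0.89). CDC37 passed when GC content was corrected (−0.17, adjusted p = 0.0029). In the promoter windows of RefSeq (GRCh38.p14; 250 bases before to 50 after a start), the STAT motif TTCNNNGAA, which reads the same on both strands, was found in none of the 12 windows of 8 members, and 2677 of 34961 windows (7.66%) of all genes held it.

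The genes whose pattern over the 6 libraries was most like that of IL12RB2 were FAM107B (Pearson's r 0.998 of log2(CPM + 0.5)), OPA1 (0.998) and WNT8B (0.995). With 6 libraries in 2 groups, 211 of 12262 genes had an r over 0.95. FAM107B fell by 0.31 on the log2 scale (SE 0.057) and OPA1 by 0.17 (SE 0.039, not called with GC correction and the replicate block, −0.12), whereas the log2 fold change of WNT8B was −0.39 with an SE of 0.14 and an adjusted p of 0.0643 by edgeR's QL test.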

How the data were processed

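The deposited values are unnormalized gene counts from 6 libraries of poly(A) RNA. The authors aligned paired reads to hg38 with HISAT2 and counted with StringTie and prepDE.py3. Versions, annotation release, strandedness and the read length given to prepDE.py3 are not given in the sources used here, so a count may not be 1 read. Groups came from sample titles, since in the treatment tag of shmiR155HG replicates 2 and 3 the number within the gene's name differs.

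The filter of the study was used (over 1 CPM in 2 or more libraries). Counts were scaled by TMM and tested with the quasi-likelihood test of edgeR 4.0.16 (R 4.3.3, robust fit, Benjamini-Hochberg adjustment over 12263 genes, threshold 0.05), with DESeq2 1.42.0 as an alternative. Replicates of a group differed by more than sampling noise, and intervals for counts of 0 cover counting error only. Positions came from GENCODE 44.

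Members and lists were chosen with earlier results of these data known. Named genes were MIR155HG, all members, JAKs and STATs, up to 3 higher and 3 lower genes a list by size of change, the nearest tested genes beside called members and the 3 genes most like IL12RB2. Genes listed at 0 or below the filter, and the overlapping MAST3, were named outside this rule after their values were seen. Some genes of the lists are not reported here.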

Additional observations from a re-analysis of the deposited data

How the results depend on the processing

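Members called lower numbered 2 in the main test, 1 by the study's rule and 1 to 2 when single libraries were left out, where TYK2 ranged from −0.19 to −0.12. IL12RB1 passed with GC offsets (−0.29, adjusted p = 0.00445), GC offsets with the replicate block (−0.29, 0.00955), DESeq2 (−0.20, 0.0438) and the exact test of edgeR (−0.20, 0.0429). Over all genes, the study's rule as applied here gave 466 lower and 551 higher. Both counts are below those that the study reported, and the reason was not tested. Leave-outs gave 580 to 891 higher (580 without shmiR155HG replicate 2). By the study's rule, other JAKs and STATs higher were 0, negative regulators 1 lower and 0 higher, response genes 3 higher and NK markers 0 lower. Negative regulators higher were 1 with filterByExpr and 1 to 2 in leave-outs, and NK markers lower were 4 with GC offsets, without or with the block.

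Same-numbered libraries did not deviate together (correlations −0.018, 0.00098 and 0.0035). The replicate block changed no call of a member (IL12RB2 −0.39, TYK2 −0.14) and gave 909 genes lower and 829 higher.

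Signs turned with GC offsets, without and with the block, for IL6ST (0.012 and 0.014), STAT5B (−0.036 and −0.036), STAT3 (−0.0081 and −0.0079), STAT4 (0.0054 and 0.0050) and SERBP1 (0.020 and 0.020). They also turned in leave-outs for STAT6 (−0.027 to 0.010), STAT5B (−0.040 to 0.043), STAT4 (−0.074 to 0.022) and ICAM3 (−1.01 to 0.11). With the union of exons as length, shCtrl and shmiR155HG levels per kilobase were 25.7 and 23.2 (TYK2), 11.5 and 9.99 (IL12RB1), 12.8 and 9.78 (IL12RB2), 6.92 and 6.70 (IL6ST), and 1.74 and 1.99 (JAK2). The cause of these shifts was not tested. Counts below about 140 in a library limit IL12A and IL23A.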
